A study of Arabidopsis thaliana with 18 samples.

Results

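SBT3.5 (locus AT1G32940) and AT5G58840 are a pair of subtilase genes of Arabidopsis thaliana, each read by 1 probe set that the array annotation assigns to 1 gene (261240_at and 247799_at). They are 2 of the 13286 loci named on the array and 2 of the 45 subtilase loci measured. They were chosen by their signals on these arrays, which were higher under ultraviolet light (UV), in SBT3.5 from a measurable level and in AT5G58840 from near the lower limit of the array. The differences of both genes between UV and control light are therefore given as a description, with no test.

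Transcripts were measured in the aerial region of single 18-day-old plants of Col-0 (the wild type, WT) and of 2 mutants in that background. The mutant tt4 makes its flavonoids poorly, and sng1 has a defect in making sinapoyl malate. Both kinds of compound absorb ultraviolet light in the leaf. All plants grew for 17 days on solid medium with 1% sucrose at 22 °C, under days of 16 h of light and nights of 8 h, and were harvested 6 h into the bright phase. On day 18 they received 24 h of ultraviolet light (the UV groups, UV-B by the series title) or stayed in continuous light, with additional light for 8 h (the CO groups). Each of the 6 groups held 3 plants, 1 per array, so the p-values measure the spread between single plants. For the UV plants the labels are silent on additional light, so UV and any such difference in light cannot be told apart. A running code in the sample titles has all UV plants before all CO plants and, within each light, WT before tt4 before sng1. Its order cannot be told apart from the light, nor from the genotype within a light. The labels name no allele for either mutant.

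Subtilases are serine proteases of the subtilisin fold. In plants most are made as inactive precursors, enter the secretory pathway, remove their own propeptide and act in the cell wall, where they cut wall enzymes, peptide hormone precursors and other proteins. SBT3.5 is known in Arabidopsis roots for processing a pectin methylesterase, an enzyme that modifies the pectin of the wall, and its close relative SBT3.3 is known for a part in immune priming. Single members of the family are known from stomatal development, organ shedding and senescence.

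SBT3.5 had a clear signal in every plant and a higher one in every UV plant. Signals are linear array intensities in arbitrary units after quantile normalisation, which gives every array the same distribution. In WT the CO plants 1 to 3 gave 230.3, 112.9 and 589.5 and the UV plants 1716, 2915 and 1899. Plant 3 was the highest of the WT CO plants and plant 2 the lowest, a wider range than in the CO plants of either mutant. In tt4 the CO plants gave 263.9, 188.8 and 189.1 and the UV plants 2359, 2259 and 2195. In sng1 the CO plants gave 312.7, 241.5 and 287.2 and the UV plants 1906, 2399 and 2018. The lowest of the 9 UV plants (1716) lay above the highest of the 9 CO plants (589.5), and UV and CO plants did not overlap in any genotype. Such a separation of all 9 from all 9 plants was found for 7.9% of the 22746 probe sets. UV plants above all CO plants of their own genotype were found for 17.5% of probe sets in WT, 16.1% in tt4, 20.3% in sng1 and 9.98% in all 3, and since the genes were chosen for this, nothing is read from it.

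On the log2 scale SBT3.5 had 7.96 ± 1.20 in WT_CO and 11.05 ± 0.41 in WT_UV (SD, n = 3 throughout). It had 7.72 ± 0.28 in tt4_CO and 11.15 ± 0.05 in tt4_UV, and 8.12 ± 0.19 in sng1_CO and 11.03 ± 0.17 in sng1_UV. UV minus CO amounted to 3.09 ± 0.43 in WT (8.53-fold), 3.43 ± 0.43 in tt4 (10.7-fold) and 2.91 ± 0.43 in sng1 (7.52-fold). Here and below, a value after ± on a difference is the standard error from a linear model over all 18 arrays. In whole shoots, more cells with a transcript and more transcript per cell cannot be told apart. These differences ranked 38th, 47th and 54th from the top among the 22746 probe sets. In WT the value depended on single CO plants, with 2.52 without WT_CO 2 and 3.72 without WT_CO 3.

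**Figure D1:**
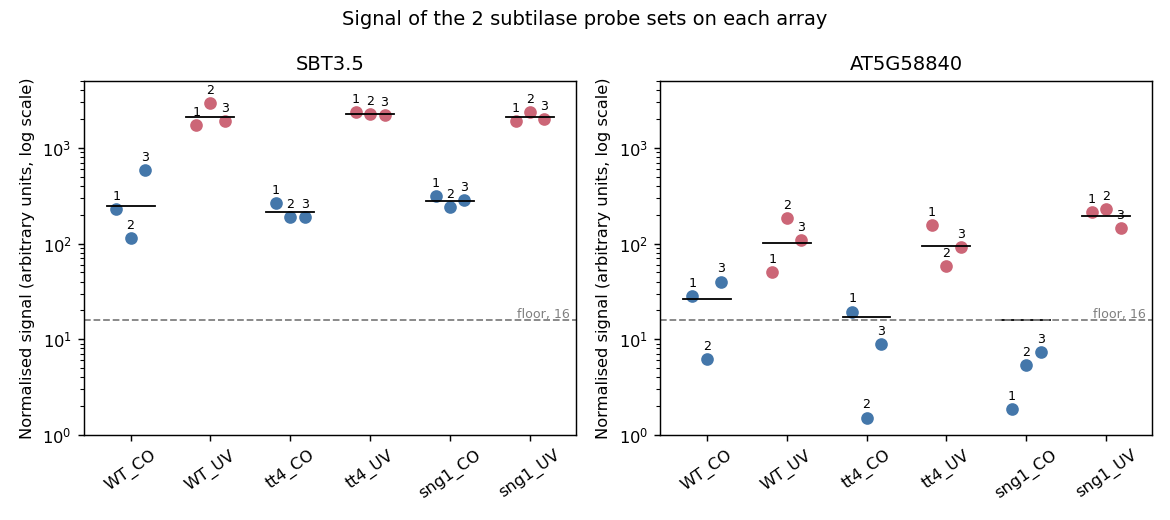
Normalised signal (arbitrary units, log scale) of SBT3.5 and AT5G58840 on each of the 18 arrays by group, with CO in blue and UV in red. Numbers give the replicate, black bars the geometric mean of the 3 plants after values under 16 were set to 16, and the dashed line that floor. SBT3.5 lies between 112.9 and 589.5 in CO and between 1716 and 2915 under UV, while AT5G58840 lies between 1.52 and 40.0 in CO and between 50.5 and 231.2 under UV.

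AT5G58840 was near the lower limit of the array in all CO plants and above it in all UV plants. In WT the CO plants 1 to 3 gave 28.3, 6.27 and 40.0 and the UV plants 50.5, 183.2 and 108.4. In tt4 the CO plants gave 19.5, 1.52 and 8.87 and the UV plants 156.4, 58.2 and 91.8. In sng1 the CO plants gave 1.88, 5.31 and 7.31 and the UV plants 212.7, 231.2 and 146.2. The lowest UV plant (50.5, WT_UV 1) lay above the highest CO plant (40.0, WT_CO 3), so here too the 9 UV plants were separated from the 9 CO plants, by a far smaller margin in WT than in sng1. The ratio of the lowest UV plant to the highest CO plant, with CO values under 16 set to 16, came to 1.26, 2.99 and 9.14 in WT, tt4 and sng1, against 2.91, 8.32 and 6.1 for SBT3.5.

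What counts as the lower limit was read from control probe sets for Bacillus genes, which plant RNA should not match. Over 27 such probe sets and 18 arrays, 45 of 486 values (9.26%) exceeded 16, none exceeded 64, and the highest was 40.8. All 9 CO values of AT5G58840 lay within that range and all 9 UV values above it. The 40.8 came from a UV array, tt4_UV 2. On their own arrays the controls reached 16.4 in WT_CO 1 and 24.4 in WT_CO 3, below the AT5G58840 signals of 28.3 and 40.0. In the other CO plants AT5G58840 lay below the highest control of the same array. Probe sets differ in their own background, so this bounds the CO signal only roughly. Signals under 16 were raised to this floor of 16, or 4 as a log2 value, before any test, which put 1 of 3 CO plants at the floor in WT, 2 of 3 in tt4 and 3 of 3 in sng1. The start from the floor thus holds in full in sng1 alone, and the level of SBT3.5 cannot be set against that of AT5G58840, since their probes differ.

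After this floor AT5G58840 had 4.72 ± 0.67 in WT_CO and 6.65 ± 0.93 in WT_UV on the log2 scale (SD, n = 3 throughout). It had 4.09 ± 0.16 in tt4_CO and 6.56 ± 0.71 in tt4_UV. In sng1 all CO values were 4, and sng1_UV had 7.59 ± 0.35. UV minus CO was 1.93 ± 0.46 in WT (3.81-fold) and 2.46 ± 0.46 in tt4 (5.52-fold), and in sng1 the UV signal was at least 12.1-fold higher (3.59 ± 0.46). No rank among the probe sets is given for AT5G58840, since the floor sets the size of its difference.

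The floor set the size of the AT5G58840 difference and had no effect on that of SBT3.5. With a floor of 1, in place of 16, AT5G58840 was 5.21-fold higher under UV in WT, 14.7-fold in tt4 and 46.2-fold in sng1. With a floor of 32 it was 2.9-fold higher in WT, at least 2.94-fold in tt4 and at least 6.03-fold in sng1. With a floor of 64 all CO plants and 2 of the 9 UV plants were at the floor, and the values were 1.69-fold in WT, 1.52-fold in tt4 and at least 3.02-fold in sng1. The SBT3.5 folds were the same with all 4 floors, since its lowest signal was 112.9. Which gene had the larger computed fold thus depended on the genotype and the floor. SBT3.5 had the larger computed fold in WT with each floor. In tt4 it had the larger one with floors of 16, 32 and 64 and the smaller one with a floor of 1. In sng1 the fold of AT5G58840, or its lower bound, exceeded that of SBT3.5 with floors of 1 and 16. With floors of 32 and 64 its lower bound lay below the SBT3.5 fold. Where CO plants were at the floor, the fold of AT5G58840 can be larger than computed. A computed value below that of SBT3.5 then does not show which fold was larger.

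**Figure D2:**
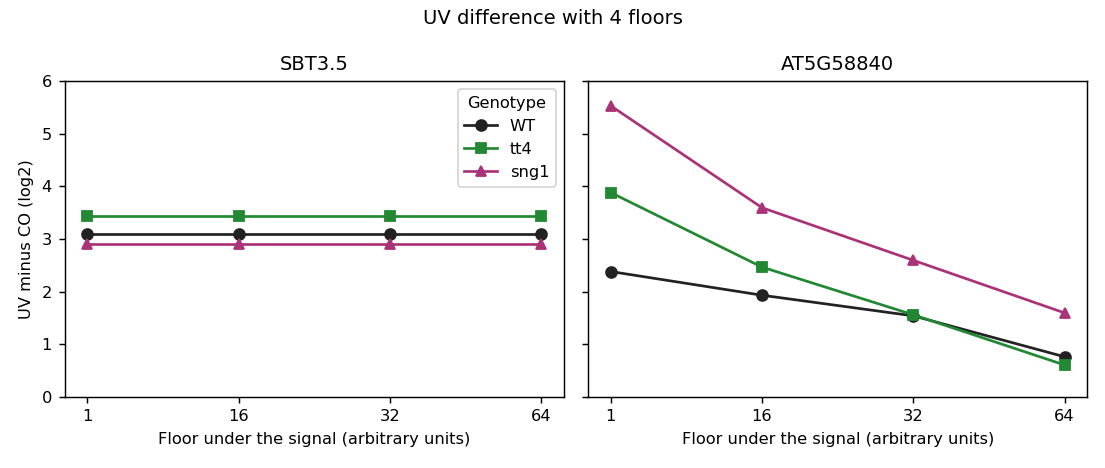
UV minus CO on the log2 scale for SBT3.5 and AT5G58840 in each genotype, with signals under 1, 16, 32 or 64 set to that floor (horizontal axis, evenly spaced categories). The lines of SBT3.5 are flat at 3.09, 3.43 and 2.91, and those of AT5G58840 fall, in sng1 from 5.53 with a floor of 1 to 1.59 with a floor of 64.

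To show how common each kind of difference was on the array, probe sets were counted with limits chosen after the data were seen. In sng1 2801 probe sets had all 3 CO plants at or under 16, and 7 of them (0.25%), AT5G58840 included, had all 3 UV plants above 64. The counts were 2 of 2590 (0.0772%) in WT and 5 of 2584 (0.193%) in tt4, and AT5G58840 was in neither. Of probe sets with all 3 CO plants above 64, SBT3.5 was among the 70 of 13941 (0.502%) in WT, the 99 of 13937 (0.71%) in tt4 and the 89 of 14116 (0.63%) in sng1 that were at least 4-fold higher under UV. The values that placed both genes in these counts are those that chose them.

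Between genotypes, neither gene passed the test in either light. By limma with Benjamini-Hochberg adjustment over all 22746 probe sets, the adjusted p of SBT3.5 was at least 0.965 and that of AT5G58840 at least 0.89 in all 6 comparisons. Few probe sets passed at all: under UV 0.0132% in tt4 minus WT, 0.022% in sng1 minus WT and 0.0264% in tt4 minus sng1, and in CO 0.022%, 0.00879% and 0.0484%.

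The order of the SBT3.5 geometric means under UV was tt4 (2270), WT (2118) and sng1 (2098), and in CO sng1 (278.9), WT (248.4) and tt4 (211.2). Neighbours in these orders did not differ beyond the spread of the plants. The mutant minus WT differences of SBT3.5 on the log2 scale were 0.10 in tt4 (95% interval −0.82 to 1.02) and −0.01 in sng1 (−0.94 to 0.91) under UV, and −0.23 (−1.16 to 0.69) and 0.17 (−0.76 to 1.09) in CO. The intervals allow differences of about 1 on the log2 scale either way, so they do not show that the genotypes had the same level. Their width comes from 1 estimate of spread shared by all 6 groups. WT_CO had the largest SD among these (1.20, against 0.05 to 0.41 in the other groups).

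The order of AT5G58840 under UV was sng1 (193.03), WT (100.1) and tt4 (94.2). Its sng1 plants under UV (146.2 to 231.2) overlapped those of WT (50.5 to 183.2) and of tt4 (58.2 to 156.4). The difference from WT was 0.95 in sng1 (95% interval −0.04 to 1.93, unadjusted p = 0.0582 by limma, adjusted p = 1) and −0.09 in tt4 (−1.07 to 0.90). The difference of tt4 from sng1 under UV was −1.04 (−2.02 to −0.05, unadjusted p = 0.041 by limma, adjusted p = 0.89). In CO the differences from WT were −0.72 in sng1 (−1.70 to 0.27) and −0.62 in tt4 (−1.61 to 0.36), with 3 and 2 plants of the mutants at the floor.

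The UV effect was also compared between genotypes through the interaction, the UV minus CO difference of one genotype less that of another. It is built from the same UV differences that chose the genes, so its p-values and intervals are given as a description. For SBT3.5 it was 0.33 ± 0.60 for tt4 against WT, −0.18 ± 0.60 for sng1 against WT and 0.51 ± 0.60 for tt4 against sng1 (adjusted p of 1, 1 and 0.975 by limma). For AT5G58840 the largest was that of sng1 against WT (1.66 ± 0.64, 95% interval 0.27 to 3.06, unadjusted p = 0.023 by limma, adjusted p = 1). With all 3 sng1_CO plants at the floor, its size followed the floor, with 0.83 at a floor of 64, 1.06 at 32 and 3.15 at 1 (adjusted p = 1 in each). After the floor sng1_CO had an SD of 0, so the standard error comes from the shared estimate and does not measure spread there. The interaction was 0.53 ± 0.64 for tt4 against WT and −1.13 ± 0.64 for tt4 against sng1 (adjusted p of 1 and 0.924). The sng1 against WT interval lies above 0 before adjustment, and its p fails the adjustment over all probe sets. In the sng1 against WT interaction limma called 0 of 22746 probe sets (0%), with 688 at an unadjusted p under 0.05, and in those of tt4 against WT and against sng1 it called 0.0044% each.

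**Figure D3:**
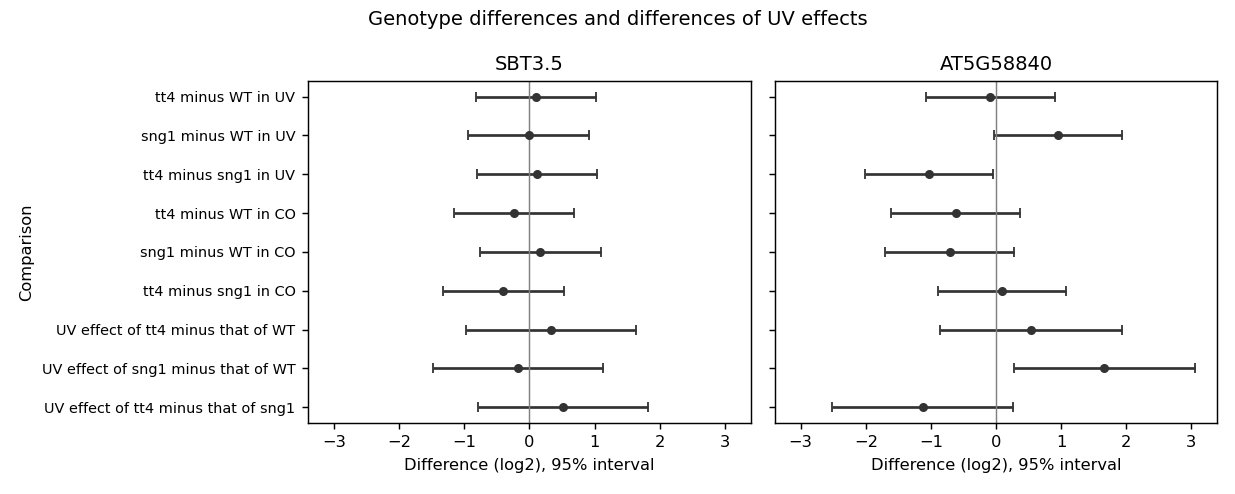
Differences between genotypes in each light and differences of UV effects for SBT3.5 and AT5G58840, on the log2 scale with 95% intervals from limma (not adjusted for the number of probe sets). All intervals of SBT3.5 include 0, and for AT5G58840 those of tt4 minus sng1 under UV and of the UV effect of sng1 minus that of WT do not. Differences of UV effects are built from the values that chose the genes and are a description.

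Within groups, both genes tended to be high in the same plants. Leaving out sng1_CO, where AT5G58840 was at the floor throughout, the plant with the highest SBT3.5 signal also had the highest AT5G58840 signal in 5 of 5 groups: WT_CO 3, WT_UV 2, tt4_CO 1, tt4_UV 1 and sng1_UV 2. The same 5 plants were the highest for 151 of the other 22744 probe sets (0.664%). The lowest plant was shared in WT_CO (plant 2) and WT_UV (plant 1), and not in tt4_UV or sng1_UV. In tt4_CO plants 2 and 3 were both at the floor for AT5G58840, so no lowest plant is given there. Across the 9 UV plants Pearson's r between both genes was 0.447 (exact permutation p = 0.23, two-sided) and Spearman's rho 0.533 (exact permutation p = 0.148). Without the 2 plants farthest from the median of SBT3.5, r was −0.0368. Leaving out the extremes of SBT3.5 narrows its range and tends to lower r, so nothing is read from this. The values over the UV plants include differences between genotypes. With the group means removed, r over all 18 plants was 0.656. SBT3.5 had its largest SDs in WT_CO (1.20) and WT_UV (0.41), so the WT plants weigh heavily in this r. In WT_CO the AT5G58840 signals (6.27 to 40.0) lay within the range of the Bacillus controls. No correlation was computed over the CO plants alone, 6 of which were at the floor for AT5G58840.

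WRKY53, a transcription factor gene of senescence and defence, had 84.4, 57.8 and 265.6 in WT_CO 1 to 3, and 177.9, 341.2 and 229.0 in WT_UV 1 to 3, the order of SBT3.5 in both groups. In sng1_CO it had 71.4, 108.8 and 141.7 and in sng1_UV 382.5, 265.3 and 331.1, where the orders differed, and under UV were opposite. In tt4_CO it had 100.5, 66.9 and 84.4 and in tt4_UV 370.9, 291.4 and 170.3, again in the order of SBT3.5. The UV rises of WRKY53 were 1.67 in tt4 and, in sng1, 1.64 (± 0.49), with adjusted p = 0.022 and 0.0268 by limma, and WT had 1.14 (adjusted p = 0.112). No share of probe sets with as many matching orders is given, and the orders of the other markers were not set against SBT3.5. Nothing is therefore read from the shared orders. The part of WRKY53 in the SBT3.5 values was not tested.

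Of the 43 other subtilases measured, 5 rose and 8 fell under UV in WT, 3 rose and 9 fell in tt4, and 4 rose and 5 fell in sng1 (limma, adjusted p under 0.05). Of all probe sets, 12.5% rose and 11.9% fell in WT, 12.7% rose and 14.1% fell in tt4, and 11.9% rose and 11.6% fell in sng1. Called in either direction were thus 30.2%, 27.9% and 20.9% of the other subtilases, against 24.4%, 26.7% and 23.5% of all probe sets. The medians of these 43 genes were −0.03, 0.00 and −0.09 on the log2 scale, against 0.00 for all probe sets in each genotype. The highest UV minus CO values among the 43 were 1.67 in WT, 1.51 in tt4 and 1.40 in sng1. The values of SBT3.5 and AT5G58840 that chose them were above these with a floor of 16. With a floor of 32 the WT value of AT5G58840 was 1.54, against 1.56 for SBT3.3, and with 64 its values in WT and tt4 were 0.76 and 0.60, against 1.56 and 1.51. In all 3 genotypes 3 of the 43 rose (6.98%) and 4 fell (9.3%), against 7.74% and 7.77% of all probe sets. None of the 3 genotypes gave a call for 27 of the 43 (62.8%), against 64.4% of all probe sets. No other subtilase was called in any of the 9 genotype comparisons and interactions by limma, where at most 5 of the 43 had an unadjusted p under 0.05. Of the 43, 4 were at the floor on all 18 arrays and could show no change.

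With the settings used here, the genes that rose in all genotypes were SBT3.3, AT1G32950 and AT5G59130. For SBT3.3 the log2 rises in WT, tt4 and sng1 were 1.56, 1.51 and 1.3 (± 0.40, adjusted p = 0.0131, 0.0133 and 0.0328 by limma). AT1G32950 rose by 1.67 ± 0.24, 1.13 ± 0.24 and 1.40 ± 0.24 (adjusted p = 0.000435, 0.00404 and 0.00131). AT5G59130, picked out after its values were seen, rose by 0.45, 0.54 and 0.48 (± 0.15, adjusted p = 0.0482, 0.0198 and 0.0395). The calls of SBT3.3 ended without WT_UV 2 (1.18, adjusted p = 0.062) or WT_CO 2 (1.17, adjusted p = 0.0615) in WT, without tt4_CO 2 (1.17, adjusted p = 0.0639) in tt4, and without any 1 of 5 sng1 plants, all but sng1_CO 3 (adjusted p from 0.066 to 0.124). Those of AT5G59130 ended without any 1 of 5 WT plants, all but WT_CO 1 (adjusted p from 0.0657 to 0.175). In tt4 they ended without tt4_UV 2, tt4_CO 2 or tt4_CO 3 (0.0704, 0.0598 and 0.0755), and in sng1 without sng1_UV 1, sng1_UV 2, sng1_CO 1 or sng1_CO 3 (0.0587, 0.165, 0.0719 and 0.157). Those of AT1G32950 held without any 1 plant and ended with a floor of 64. Over all 15 alternative settings per genotype, the AT5G59130 calls held in 2 in WT, 10 in tt4 and 7 in sng1. The SBT3.3 calls held in 12, 13 and 9. With only the groups compared, SBT3.3 had adjusted p = 0.12 in WT and 0.0557 in tt4 by limma.

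The largest falls in WT and sng1 were those of AT4G21650, which had −1.79 ± 0.44 in WT (adjusted p = 0.01 by limma), −1.14 ± 0.44 in tt4 (adjusted p = 0.0755) and −2.09 ± 0.44 in sng1 (adjusted p = 0.00411). In tt4 its CO plants gave 497.3, 405.0 and 133.6, and without tt4_CO 3 the value was −1.72 (adjusted p = 0.00348). AT4G30020 fell by 0.93, 1.26 and 1.20 (± 0.17) in WT, tt4 and sng1, with adjusted p = 0.00184, 0.000215 and 0.000367. SBTI1.1, a subtilase known for cutting a phytosulfokine precursor, fell by 0.76, 1.14 and 0.71 (± 0.16) with adjusted p = 0.00452, 0.000288 and 0.00686. AT4G20430 fell by 0.75, 0.66 and 0.68 (± 0.15) with adjusted p = 0.00329, 0.00634 and 0.00587.

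**Figure D4:**
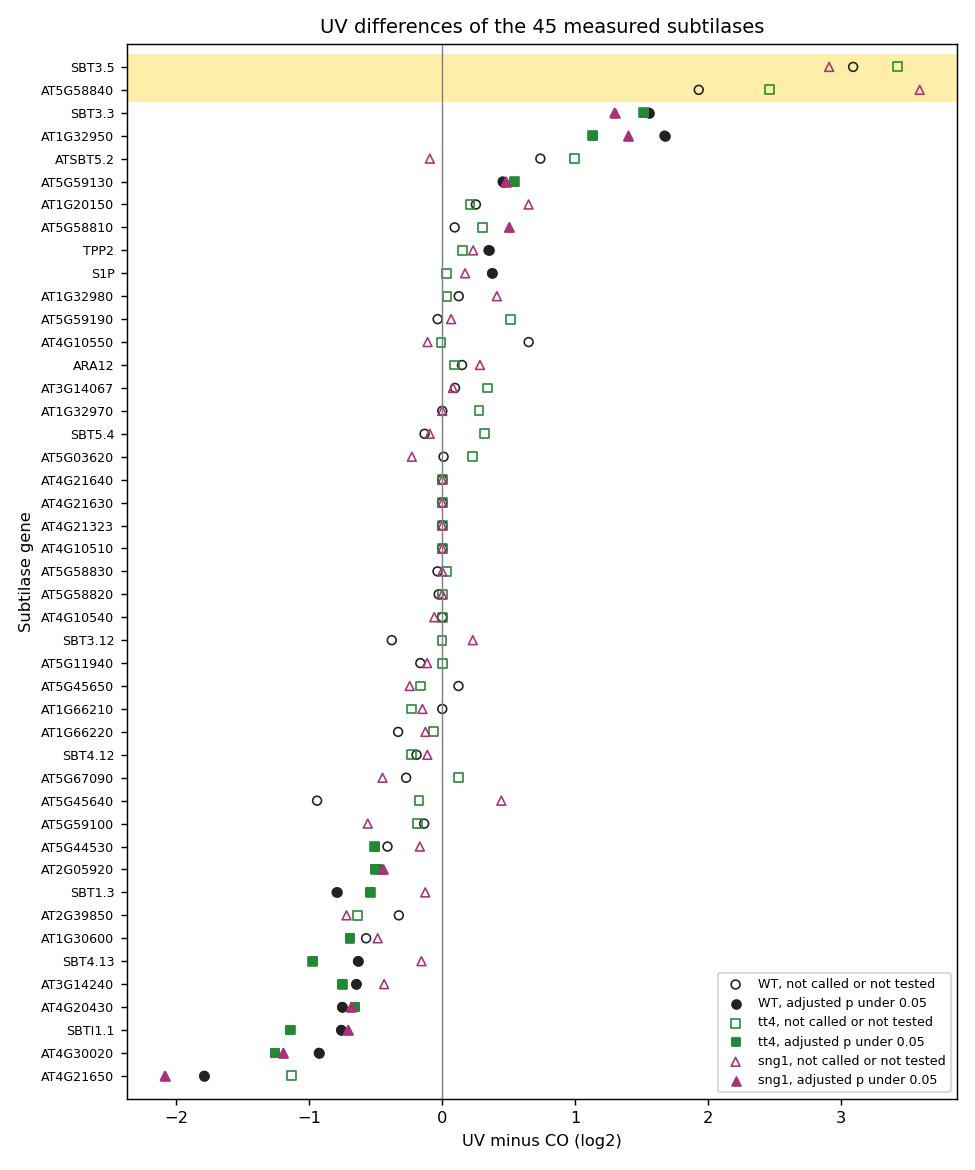
UV minus CO (log2) of the 45 measured subtilases in WT (circles), tt4 (squares) and sng1 (triangles), ordered by their mean. Filled symbols passed an adjusted p under 0.05 by limma, and the shaded rows of SBT3.5 and AT5G58840, which were chosen for this difference, carry no test. SBT3.5 (2.91 to 3.43) and AT5G58840 (1.93 to 3.59) lie to the right of the others with the floor of 16 used here, where the highest other value is 1.67.

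Both genes stand in short runs of neighbouring subtilase genes, and the runs differed. Beside SBT3.5 lie AT1G32950, then SBT3.3, then AT1G32970. The CO plants gave 7.29 to 29.6 for AT1G32950 (median 21.3, n = 9) and the UV plants 44.1 to 82.4 (median 60.6, n = 9). For SBT3.3 the CO plants gave 95.5 to 299.3 (median 205.3) and the UV plants 357.5 to 807.1 (median 465.05). Both were thus separated between the lights, AT1G32950 at signals near the floor and SBT3.3 well above it, while AT1G32970 was at the floor on 17 of 18 arrays. Such a separation of all UV from all CO plants was found for 2 of the 43 other subtilases (4.65%), against 7.9% of all probe sets. With a floor of 64 the AT1G32950 values were 0.12, 0.01 and 0.00 and no call was left.

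Beside AT5G58840 lie AT5G58830 and then AT5G58820. They were at the floor on 16 and 17 of 18 arrays, with highest signals of 17.2 and 16.9, and neither was called under UV in any genotype. AT5G58840 was above the floor on arrays where AT5G58830 and AT5G58820 were not. The annotation gives each of these genes a probe set of its own. Relatives within such runs can share sequence, and whether signal from one gene reached the probes of another was not tested.

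**Figure D5:**
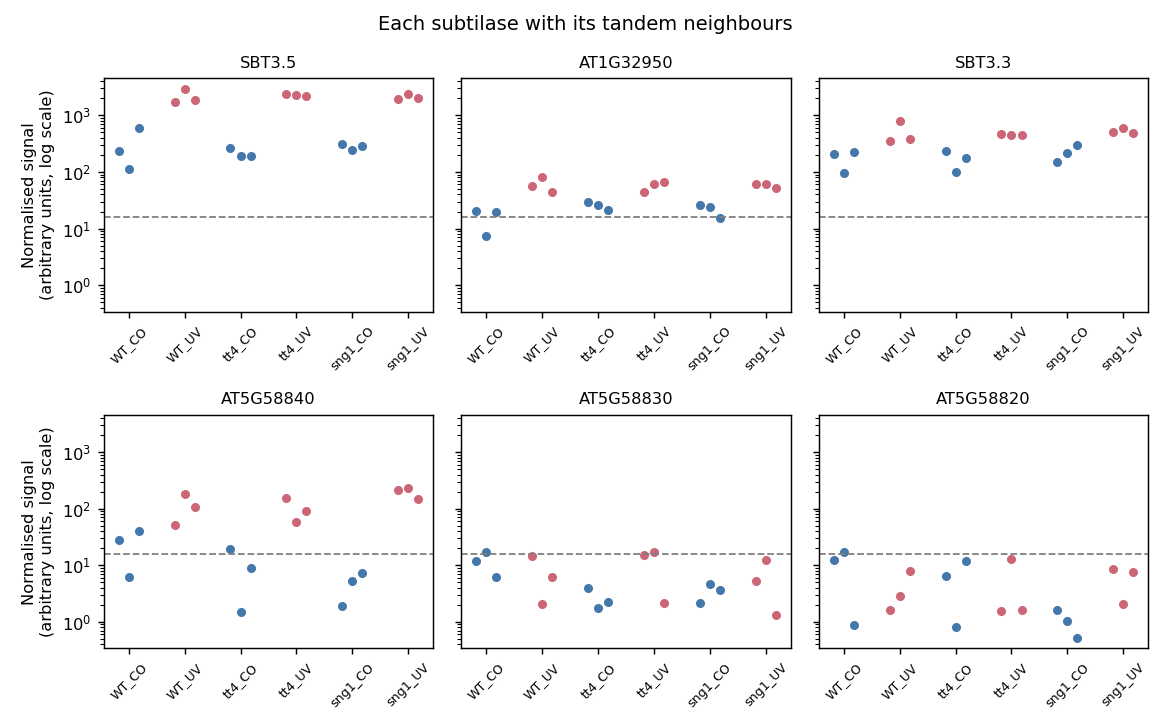
Normalised signal (arbitrary units, log scale) on each array by group for SBT3.5 and its neighbours AT1G32950 and SBT3.3 (top row) and for AT5G58840 and its neighbours AT5G58830 and AT5G58820 (bottom row), with CO in blue, UV in red and the floor of 16 dashed. The top row separates the lights in each panel, as 7.9% of all probe sets do, and the bottom neighbours reach at most 17.2.

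Lists of gene classes known to work with subtilases were sparsely measured. The pectin methylesterase known as a target of SBT3.5 has no named probe set here. Of 9 probe sets for 8 loci of pectin methylesterases and their inhibitors, 3 fell under UV in WT, 3 in tt4 and 1 in sng1. These were 33.3%, 33.3% and 11.1% of the 9, while 11.9%, 14.1% and 11.6% of all probe sets fell. Called in either direction were 24.4%, 26.7% and 23.5% of all probe sets. Of the 9, 0 rose by limma (0, 1 and 0 higher at an unadjusted p under 0.05). Their medians were −0.51, −0.55 and −0.70, against 0.00 for all probe sets. AT3G49220 fell by 1.06, 1.02 and 0.86 (± 0.20) in WT, tt4 and sng1, with adjusted p = 0.00242, 0.0026 and 0.00848. AT5G62360 had −2.22, −2.95 and −1.17 (± 0.59), with adjusted p = 0.0147, 0.00244 and 0.184. PME61, a pectin methylesterase, had −1.32, −1.13 and −0.74 (± 0.33), with adjusted p = 0.0106, 0.0209 and 0.13. ATPMEPCRB, another pectin methylesterase, had −0.27, −0.61 and −1.22 (± 0.46), with adjusted p = 0.783, 0.383 and 0.0756. The WT call of AT5G62360 ended without WT_UV 2, WT_UV 3 or WT_CO 2 (adjusted p = 0.0585, 0.0614 and 0.0687), and the tt4 call of PME61 without any 1 of 4 tt4 plants, all but tt4_UV 1 and tt4_CO 3 (0.0519 to 0.0939). The 2 probe sets of AT1G62760 disagreed, with one at the floor on all arrays and the other between 49.3 and 213.9.

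Of 2 measured precursors on the list of proteins cut by subtilases, AT5G01075 fell by 1.74, 1.42 and 1.3 (± 0.15) in WT, tt4 and sng1, with adjusted p = 1.88e-05, 5.38e-05 and 0.000112 by limma. CLE40, a signalling peptide of the CLE family, had −0.17, −0.28 and −0.22 (± 0.29), with adjusted p of at least 0.56 and 8 of 18 arrays at the floor. AT1G71950, listed as a subtilase inhibitor, rose by 0.42, 0.56 and 0.41 (± 0.10), with adjusted p = 0.0106, 0.00151 and 0.0113. Its calls ended without WT_CO 2 in WT (adjusted p = 0.0505) and without sng1_UV 1 in sng1 (0.0519).

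The genes whose log2 values over the 18 plants were most like those of SBT3.5 were AT1G74360 (Pearson's r = 0.982), AT4G16660 (0.981), AT2G32140 (0.98), AT1G66880 (0.98) and ATERDJ3B (0.976), out of 12600 probe sets of 1 gene. For AT5G58840 they were CYP71B6, a cytochrome P450 gene (0.973), AT1G74360 (0.96), AT2G04400 (0.959), NDB4, an NAD(P)H dehydrogenase gene (0.956), and AT3G25610 (0.947). AT1G74360 was on both lists. These values share the arrays and the difference between the lights, and 6 of 18 values of AT5G58840 were at the floor. After the group means were removed, so that only differences between plants of a group were left, AT1G67920 (0.946), AT2G25520 (0.936), AT1G44130 (0.922), AT1G74360 (0.919) and AT2G37750 (0.916) were most like SBT3.5. CYP71B6 (0.883), AT5G23850 (0.854), YLS5 (0.825), AT2G04400 (0.81) and AT3G11230 (0.802) were most like AT5G58840. Between both subtilases this r was 0.656, with the weight of the WT plants described above.

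In RNA quality, UV plants exceeded CO plants on average by 0.0840 in the GAPDH control's log2 ratio of signal near the 3′ end to that near the 5′ end (exact permutation p = 0.0117, n = 9 each, two-sided), with 0.168 in WT, 0.0506 in tt4 and 0.0335 in sng1. For the actin control the ratio was higher by 0.206 (exact permutation p = 0.0324, n = 9 each, two-sided), with 0.431 in WT, −0.0246 in tt4 and 0.212 in sng1. The WT value of the actin control came largely from 1 array, WT_UV 3, with a ratio of 1.83 against 0.896 and 1.01 in WT_UV 1 and 2. WT_UV 3 also had the highest GAPDH ratio of the 18 arrays (0.255). The differences were not computed without this array, so they do not describe the WT UV plants in general. Of 6 root markers 3 were measured, since subtilases such as SBT3.5 are also known from roots. Their summed signal was 3741 to 6152 in WT_CO against 1579 to 2659 in WT_UV. In tt4 it was 3485 to 5623 in CO against 879.8 to 3117 under UV, and in sng1 4087 to 5408 against 2161 to 4099, where the lights overlapped. Nearly all of it came from PYK10, while the root hair expansins EXPA7 and EXPA18 never exceeded 48.3 and 36.3. PYK10 itself had UV minus CO values of −1.18, −1.60 and −0.79 (± 0.42) in the order WT, tt4 and sng1, with adjusted p = 0.0568, 0.0125 and 0.211 by limma. Both measured guard cell lineage markers gave calls: FMA fell by 0.62, 0.65 and 0.66 (± 0.14, adjusted p = 0.00519, 0.00322 and 0.00349), and SPCH had −1.04, −0.48 and 0.05 (± 0.25, adjusted p = 0.00923, 0.198 and 1). SWEET11, the 1 vascular marker measured, gave no call (adjusted p of at least 0.114). RCA, the rubisco activase gene of green tissue and 1 of 7 mesophyll markers, had 14176 to 18595 on all arrays and fell in tt4 alone among the calls (−0.22 ± 0.06, adjusted p = 0.0123). The part of these markers and of RNA quality in the subtilase values was not tested.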

How the data were processed

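The deposited values were intensities, 1 linear signal per probe set and array, for 22810 probe sets on 18 Affymetrix arrays hybridised with biotin-labelled cRNA from 10 µg of total RNA, per the labels' protocols. The sources used here do not name the authors' software or scaling. After trimming 2% of values at each end, every array averaged 500, and medians lay between 163 and 185. The number of arrays limits the precision.

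The signals were quantile normalised, 64 control probe sets were removed, values under 16 were set to 16 and log2 was taken. All arrays entered 1 linear model with a mean for each of the 6 groups (limma 3.58.1, R 4.3.3, 12 residual degrees of freedom). Benjamini-Hochberg adjustment ran over 22746 probe sets, and an adjusted p under 0.05 is a call. AT5G59130 was named after its values were seen. The procedure was tested on simulated data.

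Names came from the supplied annotation of 13513 probe sets with 1 gene; 503 had several genes, 3 of them with a listed subtilase, and 8730 were unlisted. The lists were made from loci, since the tables hold no product text. The members and lists were chosen with earlier results of these data known. Named were both members, the 6 other subtilases with the largest mean absolute UV effect and those next to a member, up to 4 genes per further list by adjusted p, and the 5 genes most like each member by each measure. Of the marker lists, 1 of 7 mesophyll, 3 of 6 root, 2 of 4 guard cell, 1 of 5 vascular and 1 of 3 senescence genes were measured, and 0 of 5 of floral organs. No sequences were used here.

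The labels do not say that replicate numbers pair the plants, and the main model used no pairing. Of 27 correlations between same-numbered plants of compared groups, 10 were over 0.1 (range −0.526 to 0.527). No correlations between differently numbered plants stand beside them, so they do not settle whether the plants were paired. Alternatives were other floors, median centring, the deposited scale, a filter on dim probe sets, only the groups compared, array weights, a replicate block and leaving out each array.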

Additional observations from a re-analysis of the deposited data

How the results depend on the processing

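The differences of SBT3.5 between the lights kept their direction under every alternative run, and those without 1 plant ran from 2.52 to 3.72 in WT. Those of AT5G58840 also kept it, but their size followed the floor: with a floor of 64 they were 0.76 in WT, 0.60 in tt4 and 1.59 in sng1, with 32 they were 1.56 in tt4 and 2.59 in sng1, and with 1 they were 3.88 and 5.53. No genotype difference or interaction of either gene passed the test under any alternative run (lowest adjusted p 0.533). Small ones changed sign without 1 plant: for SBT3.5 tt4 minus WT under UV (−0.052 to 0.33), sng1 minus WT under UV (−0.17 to 0.22), tt4 minus WT in CO (−0.80 to 0.39), sng1 minus WT in CO (−0.40 to 0.79), and the interactions of tt4 (−0.29 to 0.90) and sng1 (−0.81 to 0.39) with WT, and for AT5G58840 tt4 minus WT under UV (−0.58 to 0.35). For SBT3.5, sng1 minus WT under UV was 0.026 with median centring and 0.0062 as deposited. The interaction of tt4 with WT for AT5G58840 was −0.16 with a floor of 64. The cause of these moves was not tested beyond the construction of the alternatives.

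The counts of other subtilases that rose (5, 3 and 4 in WT, tt4 and sng1) were 2 in WT and 2 in sng1 with a floor of 64, 3 and 2 as deposited, 2 in sng1 with a floor of 1 or with median centring, and 2 in WT and 1 in tt4 with the groups compared alone. Without 1 plant they ran from 2 to 4, 1 to 3 and 2 to 3. The count that fell was 4 in WT (in place of 8) with the groups compared alone and 8 in sng1 (in place of 5) with array weights. The pectin methylesterase falls (3, 3 and 1) were 1, 0 and 3 with the groups compared alone, and in sng1 2 as deposited and 4 with array weights. Of the 5 genes most like SBT3.5, 3 were shared with a floor of 64 and 1 after removal of group means, and of those most like AT5G58840, 0 and 2. With the replicate block, whose numbers are not known to pair plants, the interaction of sng1 with WT for AT5G58840 was 1.66 ± 0.70 (adjusted p = 1). With this block the calls of SBT3.3 in sng1 (1.3, adjusted p = 0.0514) and of AT5G59130 in WT (0.45, adjusted p = 0.0542) ended. CLE40 ran from −0.32 to 0.14 in WT without 1 plant, above 0 only without WT_CO 2.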
